A study of Mus musculus with 4 samples.

Results

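Protein folding genes were followed across spatial transcriptomes of the mouse ovary. The set holds 30 genes of 32285 in the deposited tables, chosen by symbol: 9 cytosolic chaperones, 3 mitochondrial chaperones, 6 chaperones and co-chaperones of the endoplasmic reticulum (ER), 6 ER lectins, disulfide isomerases and prolyl isomerases, 3 ER stress factors or parts of ER-associated degradation, and 3 transcription factors of the unfolded protein response. All 30 had counts in every section and passed the filter on low counts between the ages. In the 10x Visium assay, barcoded spots under a frozen section of tissue bind its RNA, and 1 spot lies under several cells. Ovaries came from outbred CD-1 females that had aged naturally, without a transgene, deletion or drug named in the labels.

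The young group was 3 to 4 months old and the aged group 15 to 16 months, with 4 animals and 4 sections each. Every one of the 4 capture areas carried 1 young and 1 aged section, numbered here by area (young 1 and aged 1 to young 4 and aged 4). After spots without counts were left out, 2566 young and 1625 aged spots remained, and total counts of unique molecules (UMIs) per section ran from 2777948 to 21619232. Because 1 section stands for 1 ovary, the follicles and corpora lutea that the cut happened to cross differ between sections, and the labels give no cycle stage. The share of mitochondrially encoded UMIs was 0.597 to 1.88% in young and 1.31 to 2.96% in aged sections, and higher in the aged section of all 4 areas.

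The labelled tissue carried its defining markers. Oocyte, granulosa, corpus luteum, theca and interstitial, stromal and smooth muscle lists were all detected in all 8 sections, although the granulosa marker Amh was at 0 UMIs in young 3 and aged 1. The oocyte markers of area 3 ran against the other areas, at 35.9 CPM (a gene's UMIs scaled to a common total per section) in young 3 and 471 CPM in aged 3. Other measures of area 3 were divided. Summed endothelial markers gave 658 CPM for young 3 against 343 CPM for aged 3, lower in the aged section of all 4 areas. The mitochondrial share was higher in aged 3, at 2.96%, as in the other areas. Macrophage markers ran against the other areas, where the aged section was higher: their sum was 873.7 CPM for young 3 against 276.5 CPM for aged 3. The plasma cell, T and NK cell, and red blood cell lists were likewise lower in the aged section of area 3 alone. No value here settles whether the ages of that area were exchanged, so the results below were also computed without area 3.

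As background, cytosolic chaperones of the HSP70, HSP90 and HSP40 families and the small heat shock proteins keep proteins soluble and fold them, and heat shock factor HSF1 raises many of their genes when proteins unfold. In the ER, unfolded proteins activate the sensors IRE1, PERK and ATF6. IRE1 splices the mRNA of Xbp1, PERK leads to translation of Atf4 and then to transcription of Ddit3 (CHOP), and cleaved ATF6 raises ER chaperone genes. Cells that secrete large amounts of glycoprotein or peptide hormone, such as granulosa cells with their inhibins and oocytes with their zona pellucida proteins, depend on this ER machinery.

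ATF6 acts with the factor NF-Y at the ER stress response element, which is CCAAT, any 9 bases, then CCACG. RefSeq promoter windows (GRCm38.p6, the build also called mm10; 250 bases before to 50 after a start) were given for 24 of the 30 genes. The element was searched on both strands and was found in the windows of 8 genes, or 33.3% of those with a window, against 0.119% of all 32851 windows of that length. Here and below the first share counts genes, whose windows number 30, and the second counts windows. Members were chosen as chaperone and response genes, so an excess of the response's own element may come with that choice. The matching sequences are shown since the genes that hold them moved together in some tissue compartments, though not in others. They are printed 5′ to 3′ on the strand of the gene, with the fixed letters of the element in capitals. A CGTGG before an ATTGG is the element on the other strand.
Hspa5, chr2:34772020-34772048, plus strand: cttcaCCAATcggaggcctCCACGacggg
Hsp90b1, chr10:86705633-86705661, minus strand: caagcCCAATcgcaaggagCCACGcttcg
Hsp90b1, chr10:86705528-86705556, minus strand: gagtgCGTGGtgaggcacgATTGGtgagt
Calr, chr8:84847070-84847098, minus strand: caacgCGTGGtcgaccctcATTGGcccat
Canx, chr11:50325795-50325823, minus strand: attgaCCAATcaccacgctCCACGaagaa
Pdia6, chr12:17266486-17266514, plus strand: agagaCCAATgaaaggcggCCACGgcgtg
Dnajc3, chr14:118937822-118937850, plus strand: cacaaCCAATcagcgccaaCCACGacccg
Creld2, chr15:88819515-88819543, plus strand: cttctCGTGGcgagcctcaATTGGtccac
Derl3, chr10:75893237-75893265, plus strand: tctacCGTGGgacttccccATTGGctagc

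By the GENCODE M21 annotation, the Hspa5 stretch lay in an exon of an Hspa5 transcript with an earlier start, and the other 8 stretches lay between annotated genes. The elements lay between positions -212 and -47 from the RefSeq start. The heat shock element was searched as GAA, TTC and GAA with any 2 bases between neighbours, since HSF1 binds repeated GAA units of alternating direction. Its letters were found for Hspd1, Hspe1 and Hsph1, or 12.5% of the genes with a window, against 0.603% of all windows. Hspd1 and Hspe1 are neighbours that are read in opposite directions, and their annotated genes overlap by 112 bases. Both windows hold the same stretch, in which matches on the 2 strands overlap, shown here because these genes also varied together from spot to spot.
Hspe1, chr1:55088059-55088081, plus strand: ttctaGAAccTTCcgGAAggccc

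That stretch lay in an exon of an Hspd1 transcript. The unfolded protein response element TGACGTGG and the core TGATGNAA bound by ATF4 were not among the letters of any member's window (0.676 and 3.97% of all windows hold them). All matches are descriptions of letters and not of binding.

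**Figure D1:**
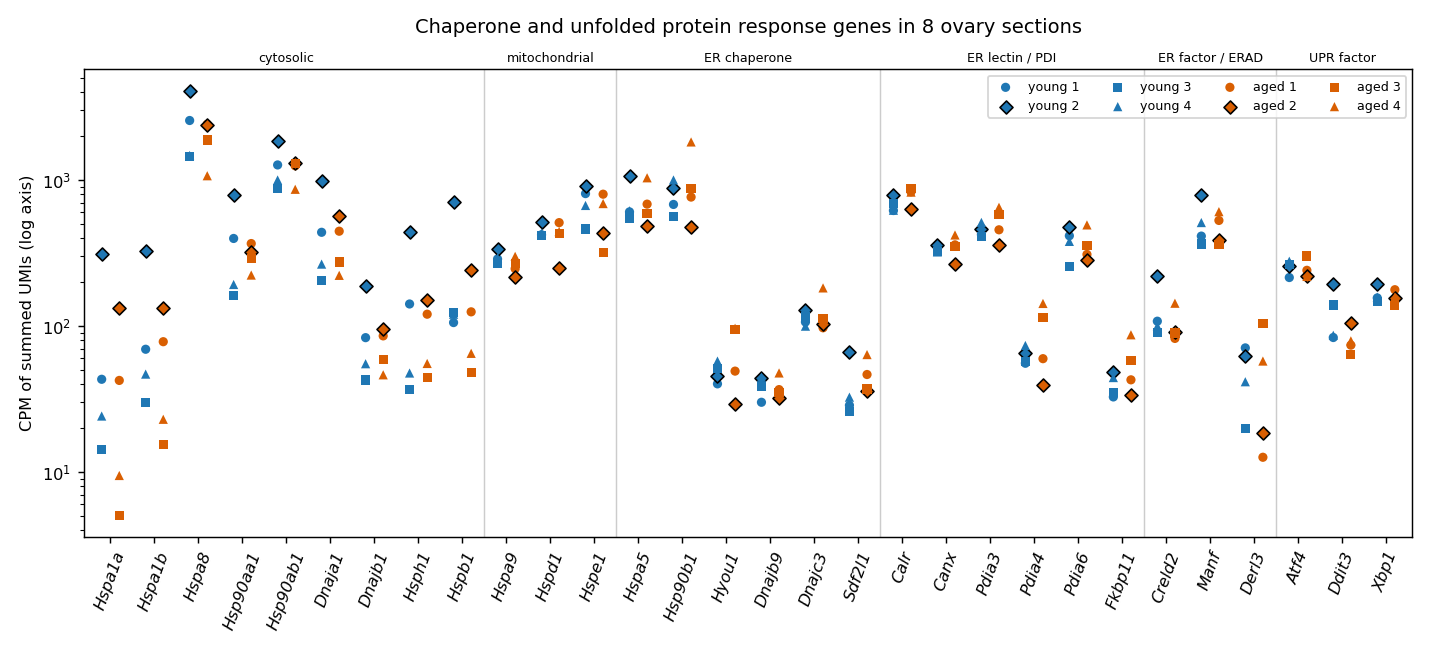
Expression of the 30 genes in the 8 sections, as CPM of UMIs summed over a section (log axis), with young sections in blue, aged in orange and 1 symbol per capture area. Area 2 is outlined, and its young section was the highest young section in all 9 cytosolic chaperones.

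Hspa1a, Hspa1b, Hsph1 and Hspb1 had the largest coefficients of variation of the 30 genes between sections, and their levels followed the capture area. Hspa1a, a stress-inducible HSP70 gene, was at 43.2, 313, 14.2 and 24.2 CPM in young sections 1 to 4 and at 42.4, 132, 5.04 and 9.48 CPM in aged sections 1 to 4. Area 2 was the highest of both ages, and the range over all sections was 62.2-fold. Hspa1b, its neighbour at 9951 bases on chromosome 17, stood at 69.4, 329, 29.8 and 46.9 CPM in young and 78.2, 133, 15.5 and 23.0 CPM in aged sections. The Hspa1a and Hspa1b copies are nearly identical in coding sequence, so how reads were split between them is uncertain, although both showed the same order of areas.

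Hspb1, the small heat shock protein HSP27, gave 106, 704, 125 and 121 CPM in young and 125, 241, 47.9 and 65.1 CPM in aged sections. Hsph1, the HSP110 nucleotide exchange factor, was at 142, 443, 36.6 and 47.7 CPM in young and 121, 152, 44.3 and 55.5 CPM in aged sections. In each of these 4 genes the section from area 2 was the highest of its age, while the ages overlapped. Of the 9 cytosolic chaperones, young 2 was the highest young section in 9 and aged 2 the highest aged section in 7, with both true in 7 (77.8%). Over all 14044 genes tested, area 2 was highest in both ages for 3.53%.

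The other 5 cytosolic chaperones ranged less. Hspa8, the housekeeping HSP70, ranged 3.84-fold over sections, Hsp90ab1, the constitutive HSP90, 2.16-fold and Hsp90aa1, its inducible partner, 4.88-fold. The HSP40 co-chaperone genes Dnaja1 and Dnajb1 ranged 4.78-fold and 4.40-fold. Young 2 was also the deepest section, at a median of 28120 UMIs per spot, although aged 2 was not deep, at 13004. Summed immediate early genes, which respond to handling as well as to hormones, were 593 CPM in young 2 and 660 CPM in aged 2, inside the range of 459 to 1101 CPM over sections. What moved the heat shock transcripts of area 2 was not tested.

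Within young 2 the excess was not limited to one compartment. Spots rich in markers of 10 cell types were taken as the top 10% of a section's spots by summed marker UMIs per 10000, with at least 5 marker UMIs. Hspa1a ranged from 111 to 532 CPM over these 10 sets in young 2, while its highest set in any section outside area 2 reached 71.8 CPM, in aged 1. Hspb1 ranged from 205 to 1520 CPM over the sets in young 2, and from 66.0 to 245 CPM over those of young 3. The low end in young 2 for Hspb1 was the granulosa-rich set, at 205 CPM against 767 CPM in the rest of the section, and the high end the stromal-rich set.

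**Figure D2:**
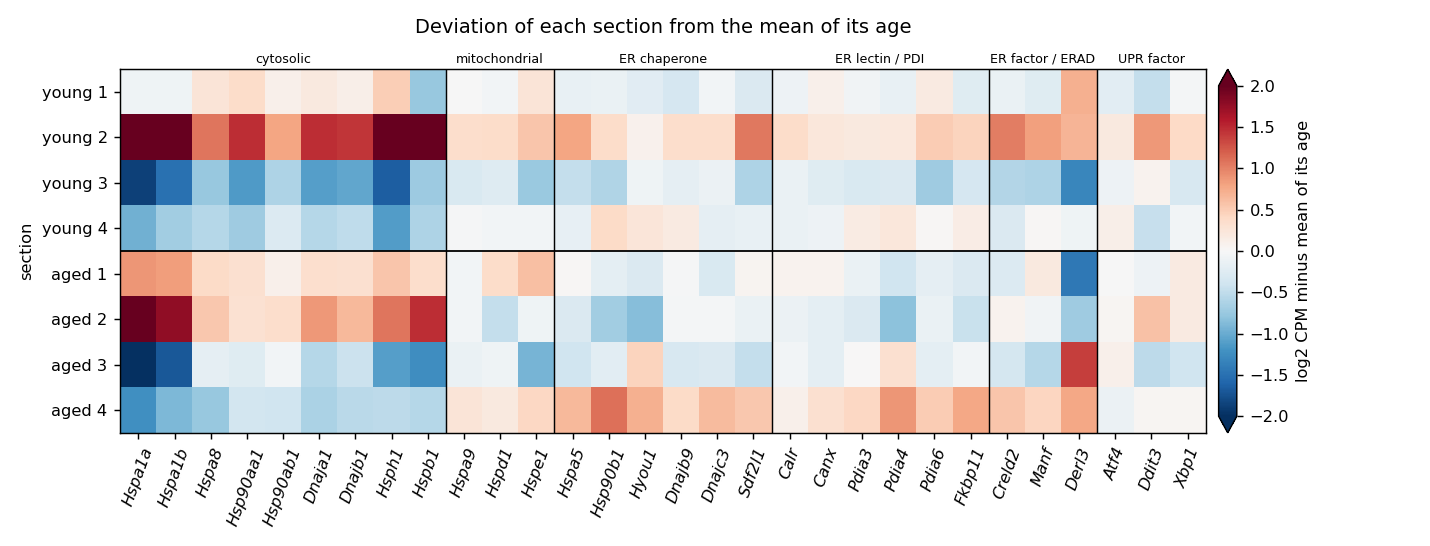
Log2 CPM of each gene minus the mean of its age group, for 8 sections (rows) and 30 genes (columns); red is above and blue below the mean, and the colour scale ends at 2. Cytosolic chaperones are red in both sections of area 2, and the ER chaperones are red in aged 4.

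The ER members showed another order of sections. Aged 4 was the highest aged section in 6 of 6 ER chaperones and in 5 of 6 ER lectins and isomerases, beside 2530 of all 14044 genes tested. Hsp90b1, the ER member of the HSP90 family (GRP94), was at 681, 882, 564 and 1002 CPM in young sections 1 to 4 and at 765, 476, 871 and 1825 CPM in aged sections. Aged 4 lay above all young sections and aged 2 below all of them. Hspa5 (BiP), the ER member of the HSP70 family and master chaperone of the response, was at 606, 1061, 550 and 616 CPM in young and 684, 485, 593 and 1037 CPM in aged sections. Young 2 and aged 4 were high, and the ages overlapped.

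Derl3, a channel protein of ER-associated degradation, ranged 8.24-fold over sections, the widest among the ER members, with 70.9, 62.8, 19.8 and 41.6 CPM in young and 12.6, 18.4, 104 and 57.6 CPM in aged sections. The transcription factor genes Atf4 and Xbp1 were steady, at coefficients of variation of 12.6 and 10.7% over the 8 sections. Ddit3, the factor that promotes cell death in prolonged ER stress, was at 83.5, 194, 139 and 86.5 CPM in young and 74.0, 105, 63.7 and 79.2 CPM in aged sections, lower in the aged section of every area.

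Deviations of the 30 genes from their age mean were shared within some capture areas. Across the genes, which are not independent replicates, the correlation between the young and aged section of an area was -0.11, 0.90, 0.51 and 0.84 in areas 1 to 4. Over all 14044 genes the values were 0.0036, 0.17, -0.22 and 0.21.

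None of the 30 genes passed the test between the ages. The edgeR quasi-likelihood test on summed counts with Benjamini-Hochberg adjustment called 0 of 30, beside 0 of 14044 genes (0.0%), and the adjusted p was 1.00 for all 30. At an unadjusted p under 0.05 there were 392 genes, of which 0 were members, and the smallest unadjusted p of a member was 0.101, for Ddit3. DESeq2 called 6 of 14004 genes (0.0428%) and 0 members. The CPM of the ages did not overlap for 194 genes (1.38%), of which 0 were members. On simulated counts with these means and library sizes, the test recovered 29% of genes changed by 1 and 87% of those changed by 2 on the log2 scale. Small differences were therefore mostly not detectable with these 8 sections. Each simulated gene had the spread typical of its level and not its own. The recovery therefore does not hold for members that varied most between sections, such as Hspa1a with an SE of 1.19. In sums over a section, fewer cells of a type and less RNA per cell cannot be told apart.

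The estimates differed by role, though none of them passed the test. All 9 cytosolic chaperones had an estimate below 0 for aged over young, with a median log2 fold change of -0.40, beside 0.01 for all genes. Hspb1 had the lowest, at -1.13 ± 0.79 (SE, 4 young and 4 aged sections), followed by Hspa1a at -1.02 ± 1.19 and Hspa1b at -0.92 ± 0.92. These SEs include the differences between capture areas. With capture area as a block the estimates were -0.89 ± 0.32 for Hspb1, -0.97 ± 0.27 for Hspa1a and -0.76 ± 0.26 for Hspa1b, and none passed the test. The 3 mitochondrial chaperones, the mortalin gene Hspa9 and the HSP60 and HSP10 partners Hspd1 and Hspe1, lay between -0.34 and -0.14. Among ER chaperones 4 of 6 estimates were above 0, with Hyou1, an ER nucleotide exchange factor, highest at 0.45 ± 0.31. Among ER lectins and isomerases 5 of 6 were above 0, including the disulfide isomerase gene Pdia4 at 0.48 ± 0.34 and the prolyl isomerase gene Fkbp11 at 0.46 ± 0.29. The stress factors Creld2 and Manf and the degradation gene Derl3 lay between -0.36 and -0.14. Ddit3 gave -0.62 ± 0.34, beside -0.04 for both Atf4 and Xbp1.

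The estimates depended on single sections. Without aged 4, 2 of 6 ER chaperones and 4 of 6 ER lectins and isomerases were above 0, with Hyou1 at 0.175, Sdf2l1 at 0.017, Pdia4 at 0.10 and Fkbp11 at 0.12, and Hsp90b1 turned to -0.19. Without young 2, 27 of 30 estimates were above 0 and all 9 cytosolic chaperones changed sign, to a median of 0.33. Leaving out both sections of area 2, a setting chosen after its values were seen, gave 22 of 30 above 0. The 6 ER chaperones and the 6 ER lectins and isomerases were then all above 0, with medians of 0.53 and 0.37. No gene of the 30 passed the test, and 4 had an unadjusted p under 0.05: Hyou1, Sdf2l1, Pdia4 and Fkbp11. The share of all genes at that p in this setting is not given here, so the 4 have no background beside them. Without area 3 the signs were as with all sections for all 30 genes.

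**Figure D3:**
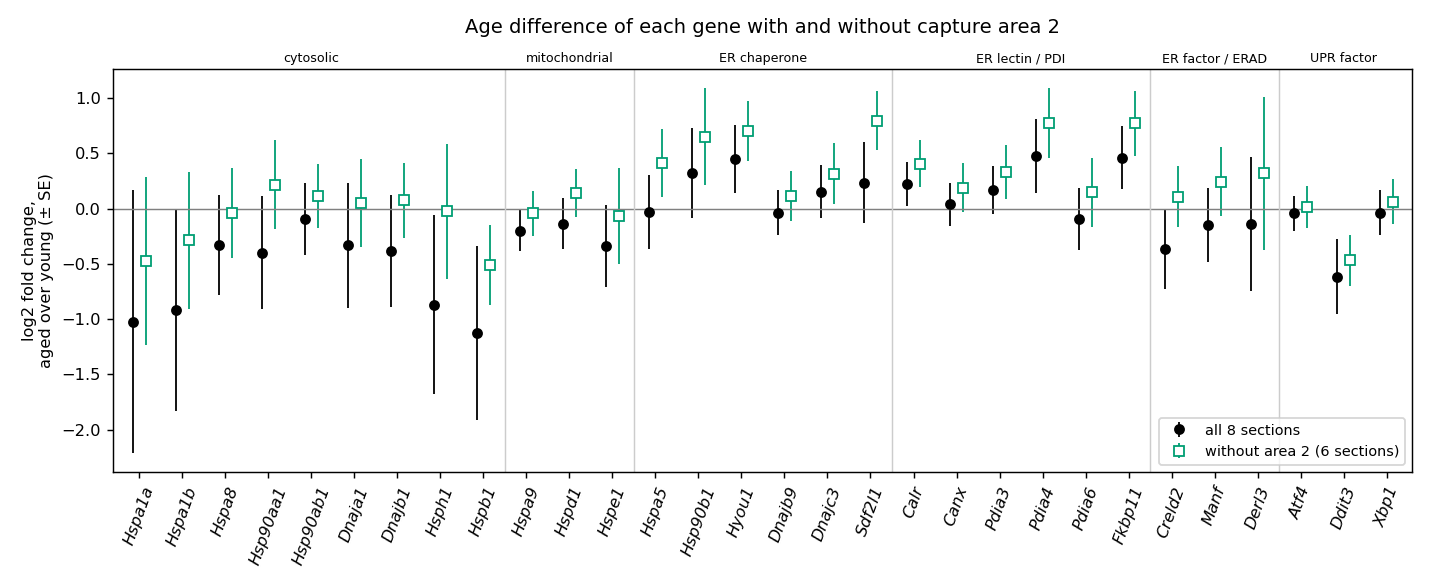
Log2 fold change, aged over young, of each gene (points, with standard errors as bars) from 8 sections (black circles) and without capture area 2 (green open squares). The cytosolic chaperones lie below 0 with all sections and on both sides of 0 without area 2, where the ER chaperones, lectins and isomerases lie above 0.

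Between tissue compartments, members were called in 9 of 10 comparisons. Each set of marker-rich spots was compared with the remaining spots of the same sections, as summed counts with section as a factor. The marker lists held none of the 30 genes. The sets are ends of a range and not pure cell types: for granulosa 170 spots, and for corpus luteum 332, lay within 10% of the lowest value taken. For theca and interstitial there were 583 such spots on either side of that value, more than the 411 in the set, so this set is the least separated from its rest.

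**Figure D4:**
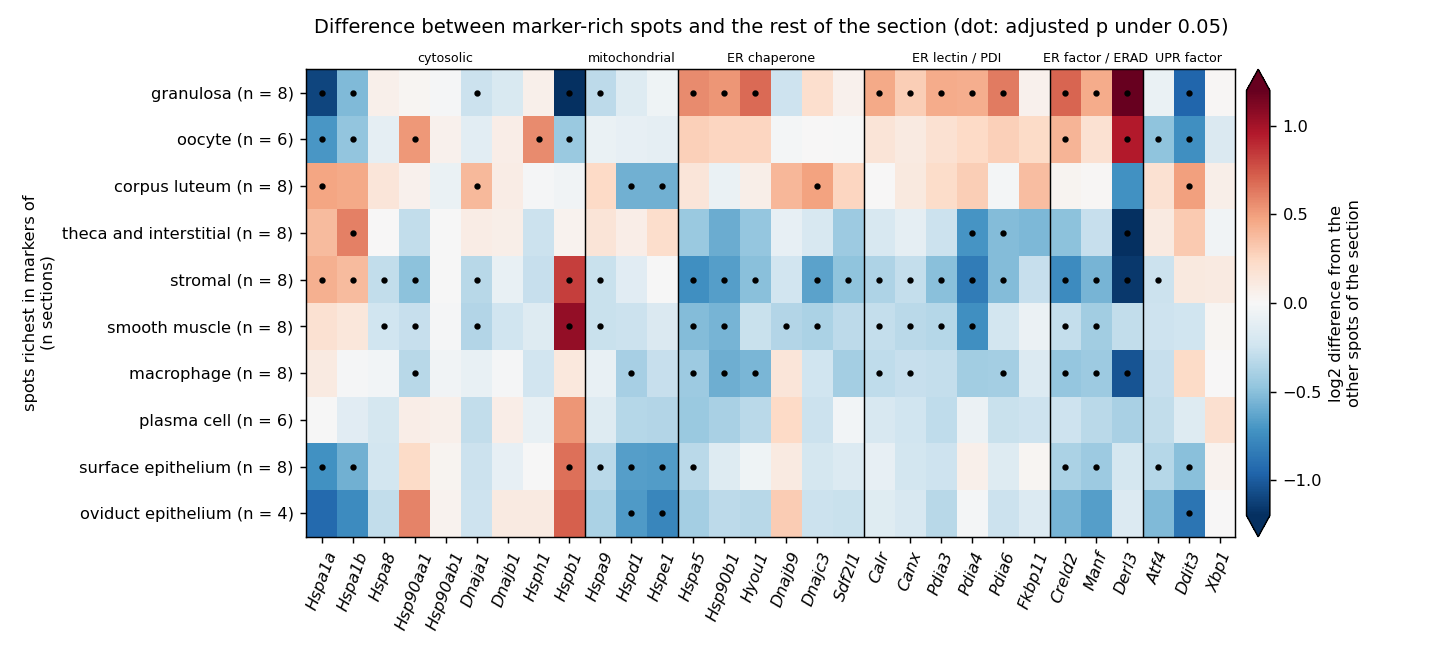
Log2 difference of each gene between spots rich in a cell type's markers and the rest of the section (red higher, blue lower; n is the number of sections), with a dot where the adjusted p of the edgeR test was under 0.05. The granulosa row is red over most ER columns, where the stromal, smooth muscle and macrophage rows are mostly blue.

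In granulosa-rich spots, 11 of the 30 genes were called higher and 6 lower, where 18.0% of all genes were called higher and 23.5% lower, so the count of lower members is near the background. All 11 that rose belong to the ER: Hspa5, Hsp90b1 and Hyou1, the lectins Calr and Canx, the disulfide isomerases Pdia3, Pdia4 and Pdia6, and Creld2, Manf and Derl3. Of the 15 ER members, Dnajb9, Dnajc3, Sdf2l1 and Fkbp11 were not called. With each capture area left out in turn, 7 of the 11 stayed called: Hspa5, Hyou1, Calr, Pdia3, Pdia6, Creld2 and Derl3. Without area 2, the count of called members was 10 (8 higher, 2 lower). Granulosa-rich spots were deeper than the rest in 6 of 8 sections, and the part of depth in these values was not tested.

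Derl3 had the largest difference of the 30 genes in granulosa-rich spots, at 1.58 ± 0.23 on the log2 scale (SE, 8 sections; edgeR adjusted p = 7.52e-05). Its level in these spots against the rest was 202 and 56.6 CPM in young 1, 211 and 44.0 in young 2, 70.2 and 14.3 in young 3, and 141 and 31.2 in young 4. In aged sections it was 13.0 and 12.6 CPM in aged 1, 57.5 and 14.2 in aged 2, 210 and 88.7 in aged 3, and 64.7 and 56.8 in aged 4. All 8 sections were higher in granulosa-rich spots, by least in aged 1 and aged 4.

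Hspa5 reached 1025 ± 275 CPM (SD, n = 8 sections) in granulosa-rich spots and 664 ± 220 CPM in the rest, higher in 8 of 8 sections (log2 difference 0.57 ± 0.11 SE, edgeR adjusted p = 0.00122). Pdia6 rose by 0.62 ± 0.09, also in 8 of 8 sections. Hsp90b1 rose by 0.53 ± 0.16 in 6 of 8 sections, and the exceptions were both from area 4, at 916 against 1011 CPM in young 4 and 1595 against 1851 CPM in aged 4.

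The 6 genes that fell in granulosa-rich spots were 4 of 9 cytosolic chaperones, 1 mitochondrial chaperone and Ddit3. The abundant cytosolic members were not called, with Hspa8 at 2333 against 2146 CPM and Hsp90ab1 at 1253 against 1217 CPM. Hspb1 fell by 1.33 ± 0.15 on the log2 scale, lower in 8 of 8 sections (edgeR adjusted p = 1.38e-05), and Hspa1a, Hspa1b, Dnaja1 and Hspa9 were also called lower. Ddit3 fell by 0.95 ± 0.13 in 8 of 8 sections (edgeR adjusted p = 4.57e-05), where every ER member either rose or did not pass the test. On the list of response sensors and targets, 1 of 14 genes rose and 5 fell. Ddit3 was at 36.6 and 88.6 CPM in granulosa-rich spots and the rest of young 1, 76.2 and 209 in young 2, 97.5 and 144 in young 3, and 48.8 and 90.5 in young 4. In aged sections the pairs were 61.2 and 76.3, 83.5 and 107, 22.7 and 69.7, and 48.8 and 82.7 CPM. Hspb1 and Ddit3 stayed called with each area left out in turn. Of the immediate early genes in the same spots, 8 of 11 were called lower and 1 higher, with Dusp1, a phosphatase gene, at -1.94 ± 0.14. On the list of other ER folding and degradation genes 9 of 20 rose and 3 fell, with the disulfide isomerase gene Pdia5 at 1.24 ± 0.14, and the mitochondrial protease gene Lonp1 fell by 0.77 ± 0.10.

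The genes with the ER stress response element in their windows followed this division. Of the 8, 7 were called higher in granulosa-rich spots (all but Dnajc3) and 0 lower, with a median log2 difference of 0.55. Of the 16 genes whose window lacks these letters, 2 were called higher and 5 lower, with a median of -0.12. In stromal-rich spots the 8 genes were all called lower, at a median of -0.66, beside 5 lower and 3 higher of the 16. In macrophage-rich spots 7 of the 8 and 1 of the 16 were called lower, and in smooth muscle-rich spots 6 and 4. Elsewhere the division differed by set. In oocyte-rich spots the medians were 0.27 for the 8 and -0.10 for the 16. Of the 8, 2 were called higher and 0 lower there, beside 1 higher and 5 lower of the 16. In theca and interstitial-rich spots the medians were -0.47 and 0.055, with 2 of the 8 and 1 of the 16 called lower. In corpus luteum-rich spots the 8 ranged from -0.73 to 0.48, with 1 called higher. Medians of the 8 and the 16 were both -0.21 in surface epithelium-rich and both -0.26 in oviduct epithelium-rich spots. All 8 encode proteins of the ER, so the element and the site of the protein cannot be told apart here.

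In stromal-rich spots, of the 30 genes 18 were called lower and 3 higher, where 14.0% of all genes were called lower and 11.9% higher. Among the ER members 5 of 6 chaperones, 5 of 6 lectins and isomerases and 3 of 3 stress and degradation genes fell. Hspa5 was at 452 ± 138 CPM (SD, n = 8) in stromal-rich spots against 717 ± 224 CPM in the rest, lower in 8 of 8 sections (log2 difference -0.73 ± 0.11 SE, edgeR adjusted p = 2.18e-05). Derl3 fell by 1.16 ± 0.19 and Pdia4 by 0.84 ± 0.14. Dnaja1 and Hspa9 were called lower here as in granulosa-rich spots, and Ddit3 was not called, at 0.11 ± 0.11. With each area left out in turn, 10 of the 18 stayed called: Hsp90aa1, Hspa5, Hsp90b1, Dnajc3, Pdia3, Pdia4, Pdia6, Creld2, Manf and Derl3. Stromal-rich spots were shallower than the rest in all 8 sections.

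The 3 that rose in stromal-rich spots were Hspa1a, Hspa1b and Hspb1, or 10.0% of the 30, no more than the 11.9% of all genes. Of the 3, Hspb1 alone stayed called with each area left out in turn. Only 1 member was called higher with DESeq2, and likewise with the top 5% of spots. Hspb1 was higher in 8 of 8 sections, at 153, 1520, 154 and 241 CPM in young 1 to 4, where the rest was at 102, 646, 123 and 113 CPM. In aged 1 to 4 it was at 197, 307, 48.6 and 344 CPM, where the rest was at 122, 237, 47.8 and 57.5 CPM. The log2 difference was 0.83 ± 0.16 (SE, edgeR adjusted p = 0.000324), and the gap was widest in aged 4 and nearly closed in aged 3. On the list of heat shock factors and co-chaperones, 4 of 21 genes tested rose and 4 fell, with the small heat shock genes Hspb8 at 0.82 ± 0.13 and Cryab at 0.88 ± 0.14 among those that rose.

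Smooth muscle-rich spots, of which 38.3% were also stromal-rich, showed 14 of 30 genes called lower and 1 higher (11.9 and 10.5% of all genes). The gene that rose was Hspb1, whose protein also binds the actin cytoskeleton, at 364 ± 337 CPM (SD, n = 8) against 180 ± 207 CPM in the rest. Its log2 difference was 1.05 ± 0.20 (SE, edgeR adjusted p = 0.000317), positive in 8 of 8 sections. Cryab rose with it by 1.48 ± 0.12. Among the ER members 10 of 15 fell, and Hspa5, Canx and Pdia4 stayed called with each area left out in turn. Leaving out area 1 lowered the count of called genes to 9 and leaving out area 4 to 7.

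Macrophage-rich spots had 11 genes called lower and 0 higher, where 3.18% of all genes were called lower and 3.95% higher. At an unadjusted p under 0.05 there were 17 members, a count given without the share over all genes. Of the 11, 9 were ER members, and Hsp90aa1 and Hspd1 were the others. Only Derl3, at -1.04 ± 0.18 (SE, edgeR adjusted p = 0.00124), stayed called with each area left out in turn. The count was 2 without area 1, 5 without area 3 and 1 without area 4. Macrophage-rich spots were shallower than the rest in 8 of 8 sections.

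Oocyte-rich spots could be compared in 6 sections (4 young, 2 aged), and 22.1% of them were also granulosa-rich. Here 4 genes rose and 5 fell, against 10.2 and 10.5% of all genes. The HSP90 gene Hsp90aa1 was higher in 6 of 6 sections, at 517 ± 284 CPM (SD) against 346 ± 222 CPM in the rest (log2 difference 0.52 ± 0.13 SE, edgeR adjusted p = 0.00652). Hsph1 rose by 0.56 ± 0.14 and Creld2 by 0.41 ± 0.14. Derl3 rose by 0.95 ± 0.20 in 6 of 6 sections, with 131 against 15.6 CPM in aged 2 and 237 against 96.1 CPM in aged 3. The genes that fell were Hspa1a, Hspa1b, Hspb1, Atf4 and Ddit3. Hsp90aa1, Derl3, Hspa1a and Ddit3 stayed called with each area left out in turn, and the count was 5 without area 2.

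In corpus luteum-rich spots, 4 genes were called higher and 2 lower, where 12.0 and 14.1% of all genes were, so the counts are no more than the background gives. Those that fell were Hspd1 and Hspe1, whose proteins form the HSP60 and HSP10 folding chamber of mitochondria. Hspe1 was lower in 8 of 8 sections, at 381 against 882 CPM in young 1, 651 against 948 in young 2, 265 against 498 in young 3, and 317 against 722 in young 4. In aged sections the values were 798 against 801, 358 against 451, 191 against 333, and 349 against 768 CPM. The log2 difference was -0.58 ± 0.13 (SE, edgeR adjusted p = 0.00473), nearly absent in aged 1, and this call held with each area left out in turn. Hspd1 fell by 0.57 ± 0.13, while the third mitochondrial chaperone, Hspa9, had an estimate of 0.24 ± 0.11 that did not pass (edgeR adjusted p = 0.108). These spots were deeper than the rest in 7 of 8 sections. Of the set's own markers, Akr1c18, Ptgfr and Sfrp4 were higher in it than in the rest in every section, while Lhcgr was lower. The set therefore need not hold all luteal tissue, and luteal spots of another kind may lie in the rest.

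Ddit3 rose in corpus luteum-rich spots by 0.49 ± 0.15 (edgeR adjusted p = 0.0270), higher in 6 of 8 sections, with Hspa1a, Dnaja1 and Dnajc3, an ER HSP40 that binds PERK. None of these 4 calls held with each area left out in turn, and the count of called genes was 3 without area 1 and 2 without area 3. On the list of response sensors and targets, 4 of 14 rose and 0 fell. Chac1, a glutathione-degrading gene induced by ATF4, rose by 1.61 ± 0.27 in 8 of 8 sections, and Nupr1, a stress-induced chromatin protein gene, rose by 1.81 ± 0.31 in 7 of 8.

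The ER members of corpus luteum-rich spots split by section. In aged 4 all 15 were above the rest of the section, by a median ratio of 2.54, with Hsp90b1 at 5018 CPM against 1099 CPM, Hspa5 at 2053 against 806, and Pdia4 at 345 against 96.9. In young 2 and aged 3 none of the 15 was above the rest, at median ratios of 0.504 and 0.574. In young 3 all 15 were above, by a median ratio of 1.37, and in the other 4 sections 2 to 12 of 15 were. Hsp90b1 in the corpus luteum-rich spots of the 7 sections other than aged 4 ranged from 395 to 770 CPM. This pattern was chosen after the values were seen and is a description of single sections. In the fit over all sections 12 of 15 ER estimates were above 0 and Dnajc3 alone was called, and without area 4 there were 6 of 15 above 0 and Derl3 alone was called, lower.

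Marker levels also differed between these sets. Hsd17b7, which is high in steroid-producing corpora lutea, was at 1853 CPM in the corpus luteum-rich spots of aged 4, where the rest of the section was higher still, at 2281 CPM. In those spots of the other sections it was at 45.8 to 632 CPM. Not all listed markers followed the name of the set: Hsd17b7 was lower in the set than in the rest in 6 of 8 sections, and Lhcgr, the luteinizing hormone receptor gene, in 8 of 8. In aged 4 the markers Prlr, Abcb1b and Cited4 were also lower in the set. Akr1c18, which rises when corpora lutea regress, was at 31500 CPM in the set of aged 4 and at 6100 to 25930 CPM in those of the other sections. The corpus luteum list summed to 22380 CPM in aged 4, the highest of the 8 sections. The part of luteal stage in the ER values was not tested.

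Theca and interstitial-rich spots had 1 gene called higher and 3 lower, where 0.995 and 2.84% of all genes were. Derl3 was lowest here, at 15.4 ± 5.39 CPM (SD, n = 8) against 51.4 ± 33.6 CPM in the rest (log2 difference -1.60 ± 0.20 SE, edgeR adjusted p = 0.00128), lower in 8 of 8 sections. Pdia4 and Pdia6 fell with it and Hspa1b rose by 0.60 ± 0.12 in 8 of 8 sections. Derl3 alone held with each area left out in turn, and the count was 2 without area 1 and 1 without area 2.

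Surface epithelium-rich spots had 10 genes called lower and 1 higher, where 7.43 and 7.52% of all genes were. All 3 mitochondrial chaperones fell. Hspd1 and Hspe1 were lower in 8 of 8 sections, by 0.66 ± 0.12 and 0.67 ± 0.10, although these spots were deeper than the rest in all 8. Hspb1 rose by 0.66 ± 0.18 while Hspa1a fell by 0.73 ± 0.16. Of the immediate early genes 6 of 11 rose, with Fos at 1.99 ± 0.28. With each area left out in turn, 3 of the 10 lower genes stayed called (Hspa1a, Hspd1 and Hspe1), and the rise of Hspb1 did not. The count of called members was 4 without area 2 and 6 without area 3.

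Oviduct epithelium-rich spots reached the minimum of 10 spots in 3 young sections and 1 aged section, and the other sections were not compared. Over all sections they overlapped the surface epithelium set, which held 76.8% of the oviduct spots. Hspd1, Hspe1 and Ddit3 were called lower there and no member higher (2.53 and 3.84% of all genes). Leaving out area 3 left 0 calls. Plasma cell-rich spots gave 0 calls in 6 sections with edgeR, where 0.0807% of all genes were called higher and 0.0147% lower. DESeq2 called 1 member. At an unadjusted p under 0.05 there were 8 members with edgeR, a count given without the share over all genes. Plasma cells are known for a large ER, but their spots were not found to differ in these genes at this size of set. Hsp90ab1, Dnajb1, Fkbp11 and Xbp1 were called in none of the 10 comparisons; the reads counted for Xbp1 do not separate its spliced form.

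The age by compartment term was tested for 9 of the 10 sets, and 0 of 30 genes passed in any of them. Over all genes the term was called for 12 of 13407 (0.0895%) in the oocyte-rich fit and for 0 (0.0%) in the other 8. The smallest p of a member was for Derl3 in the oocyte-rich fit, where the difference in aged sections exceeded that in young sections by 1.37 ± 0.33 on the log2 scale (edgeR adjusted p = 0.123). That fit had 2 aged sections, and the term could not be fitted without area 3. In the oocyte-rich fit 8 members had an unadjusted p under 0.05, and in the other fits 0 to 4 had. The shares of all genes at that p are not given here, so these counts have no background beside them.

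**Figure D5:**
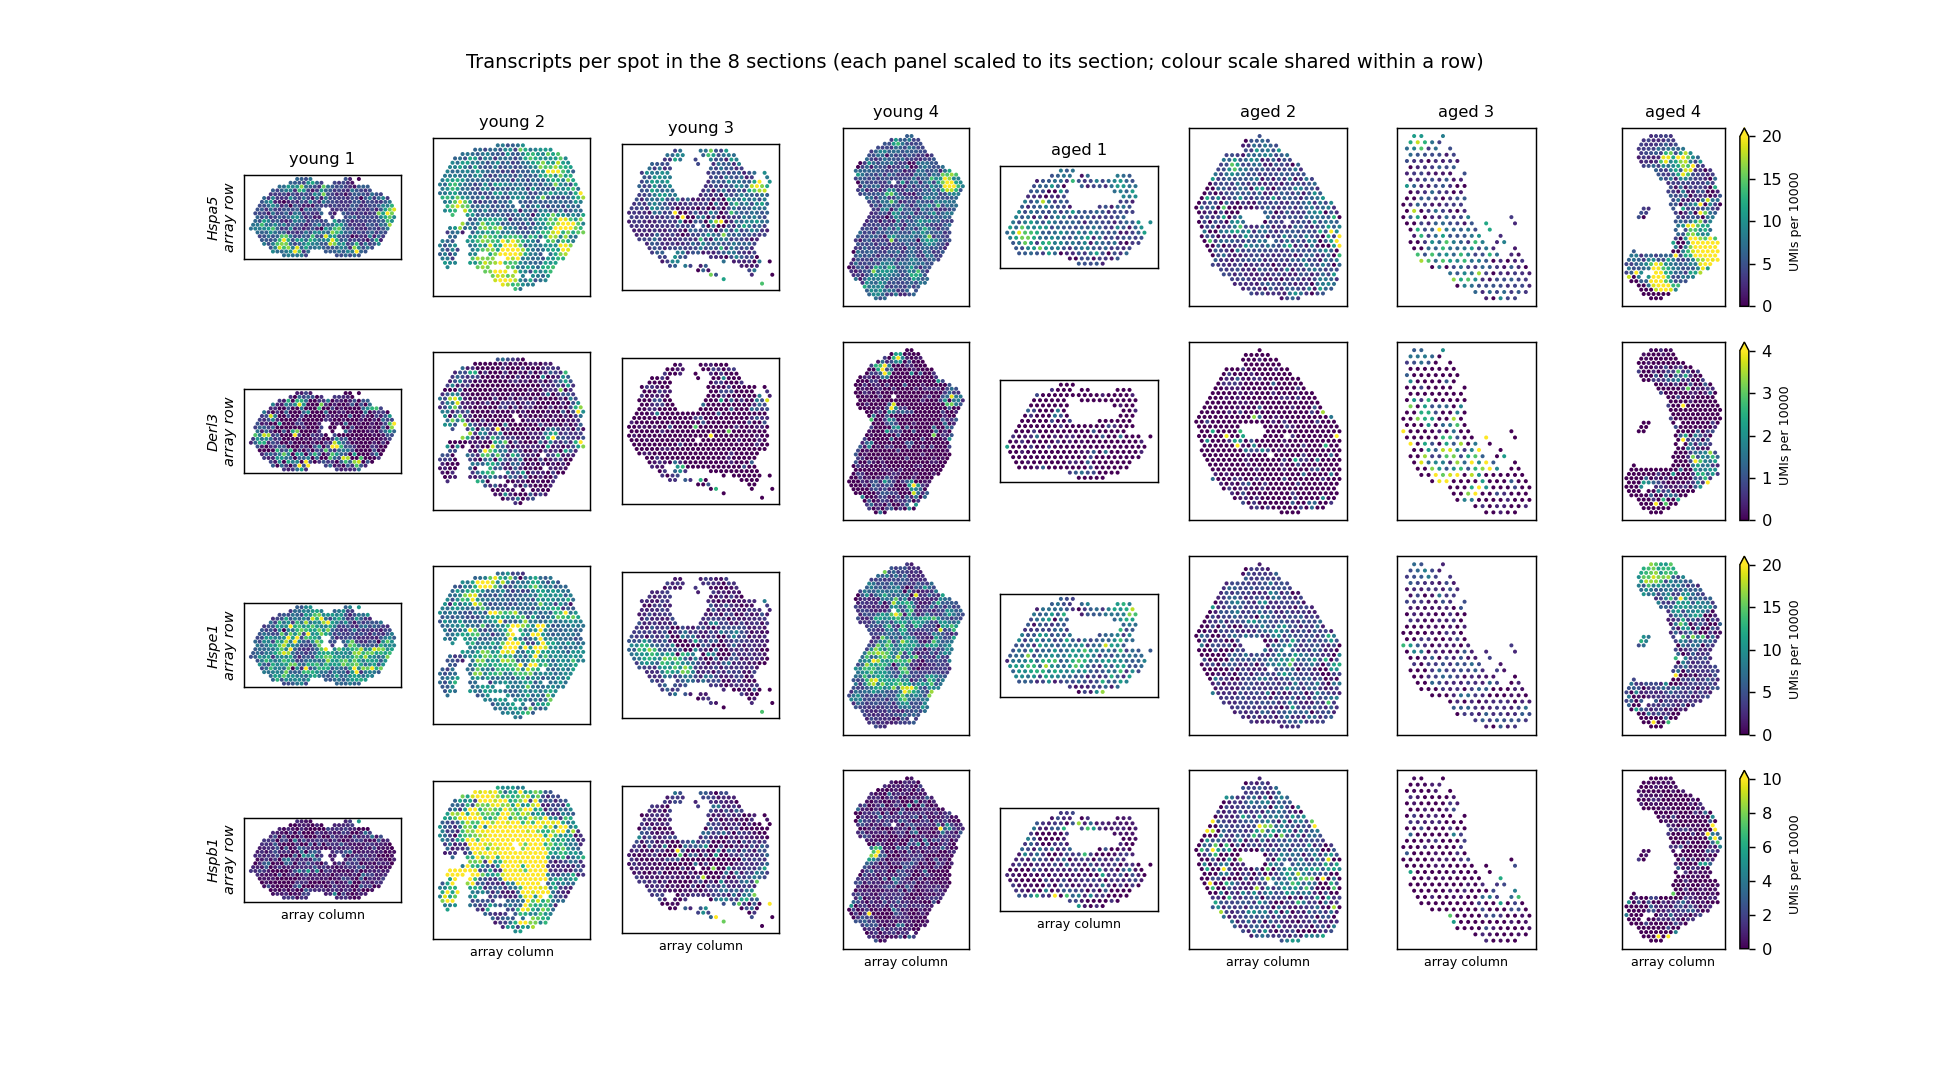
Transcripts of 4 genes per spot (UMIs per 10000 UMIs of the spot, capped colour scale shared within a row) over the array rows and columns of the 8 sections, with each panel scaled to its section. Hspa5 and Derl3 are high in patches, Hspe1 in broader zones, and Hspb1 in a broad central zone of young 2; the Hspa5 patches are widest in aged 4.

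Some pairs of members varied together from spot to spot within sections. Over 435 pairs of members, the median over 8 sections of the correlation between spots was highest for Hspd1 and Hspe1 at 0.51 (0.18 to 0.57). Next were Hsp90b1 with Pdia6 at 0.41 (0.19 to 0.64), Hspa5 with Hsp90b1 at 0.41 (0.29 to 0.76) and Hspa5 with Manf, a secreted ER stress factor, at 0.41 (0.29 to 0.74). By role, the median pair was at 0.089 among ER chaperones, 0.20 among ER lectins and isomerases, 0.039 among cytosolic chaperones and 0.094 between cytosolic and mitochondrial chaperones, so the named pairs are the high end. Spots share depth and neighbours, so these are descriptions. Hspb1 and Hsp90b1 had a median of -0.11 and a lowest value of -0.64.

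Spatial patchiness was measured by Moran's I, the correlation of a spot's level with the mean of its up to 6 neighbours. The median over sections was 0.42 for Hspe1, 0.39 for Hsp90b1, 0.35 for Derl3, 0.33 for Hspa5 and 0.31 for Hspd1. Over the 9196 genes with at least 1000 UMIs the median was 0.0417, and 28 of 30 members lay above it, Dnajb1 and Dnajb9 below. Hspb1 reached 0.72 in young 2 and 0.11 to 0.23 in the other sections. Moran's I rises with a gene's level, which was not matched here. Hspa1a was patchy in young 2, at 0.45, and in aged 3 and aged 4 its values were 0.0009 and -0.009, where it was rarely counted.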

How the data were processed

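Visium libraries of 4 capture areas were read as the deposited UMI counts per gene and spot, made with Space Ranger 1.2.1 on mm10 per the submitters' processing notes. Annotation, filters and strand setting were each not given in the sources used here. Without strand, reads of Hspd1 and Hspe1 in their overlap of 112 bases, at the start of both genes, cannot be told apart. In GENCODE M21 another gene entry named Ddit3 lies inside the first on the same strand, so strand would not separate these entries. Each area was split into its young and aged section by spot position and the side named in the labels. Counts were summed per section, or per section and marker-rich set, and tested with edgeR 4.0.16 (limma 3.58.1, R 4.3.3): TMM scaling, filterByExpr, quasi-likelihood test, Benjamini-Hochberg threshold 0.05. Marker-rich sets needed at least 10 spots in a section and had section as a factor. Python 3.11.15, numpy 2.4.6, scipy 1.17.1, scikit-learn 1.9.0 and matplotlib 3.10.9 were used for the rest.

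The tests were checked on simulated counts with 200 changed genes, drawn with the spread typical of a gene's level and not each gene's own. Of genes changed by 1 and by 2 on the log2 scale, 29 and 87% were recovered between ages (14044 genes), 77 and 97% for granulosa (13211 genes) and 80 and 100% for corpus luteum (13172 genes). The 30 members, the pathway lists and the marker lists were chosen with earlier results of these data known. All members are named; of the pathway lists, the text names genes among the 3 smallest p of a comparison. Alternatives were RLE and library size scaling, no count filter, DESeq2 1.42.0, a block for capture area, spots with at least 500 UMIs, a k-means split, each section left out, areas left out and the top 5 or 20% of spots. Leaving out areas 1, 2 and 4 was chosen after seeing the data. Sections of an area share a library per the labels, which pairs them, and the main age test had no term for area. Across 14044 genes their deviations from the age means correlated at 0.0036, 0.17, -0.22 and 0.21 in areas 1 to 4. Across the 30 members these correlations were -0.11, 0.90, 0.51 and 0.84. They are not independent between areas, since a gene's deviations within an age cancel out. Sections came from separate animals, 4 per age. In all, 1358 spot barcodes occur in more than 1 area, since every area carries the same barcode set.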

Additional observations from a re-analysis of the deposited data

Results flagged for a closer look

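Of 60 groups of 4 sections (30 genes in 2 ages), 9 held a section whose gap to its nearest neighbour exceeded Dixon's 95% critical share of the group's range; chance gives about 1 in 20 groups. Young 2 was the far section in 7 of them, always as the highest: Hspa1a at 313.2 CPM, Hspa1b at 329.0 CPM, Hspb1 at 703.5 CPM, Hspd1 at 513.7 CPM, Hspa5 at 1061 CPM, Sdf2l1 at 66.84 CPM and Creld2 at 220.1 CPM. Aged 4 was the far section in the other 2, with Hsp90ab1 lowest at 865.0 CPM, where the next section was at 1253 CPM, and Creld2 highest at 143.4 CPM.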

How the results depend on the processing

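No gene of the 30 was called between ages under any alternative run, including each section left out (0 to 0 calls). With the replicate block for capture area 0 were called, so the block changed no call. At an unadjusted p under 0.05 there were 4: Hspa1a at -0.97 ± 0.27, Hspa1b at -0.76 ± 0.26, Hspb1 at -0.89 ± 0.32 and Ddit3 at -0.57 ± 0.22 (log2 scale, SE). The share of all genes at that p with the block is not given here, so the 4 have no background beside them. Without area 2, 13 age estimates changed sign: Hsp90aa1 to 0.22, Hsp90ab1 to 0.11, Dnaja1 to 0.053, Dnajb1 to 0.076, Hspd1 to 0.14, Hspa5 to 0.42, Dnajb9 to 0.11, Pdia6 to 0.15, Creld2 to 0.11, Manf to 0.24, Derl3 to 0.32, Atf4 to 0.014 and Xbp1 to 0.064. Leaving out each section in turn gave ranges of -2.47 to 0.98 for Hspa1a, -1.70 to 0.50 for Hspa1b, -0.53 to 0.15 for Hspa8, -0.67 to 0.32 for Hsp90aa1, -0.26 to 0.24 for Hsp90ab1, -0.69 to 0.41 for Dnaja1, -0.64 to 0.33 for Dnajb1, -1.29 to 0.41 for Hsph1 and -1.83 to 0.19 for Hspb1. The ranges were -0.27 to 0.0047 for Hspd1, -0.30 to 0.31 for Hspa5, -0.19 to 0.53 for Hsp90b1, -0.18 to 0.092 for Dnajb9, -0.11 to 0.29 for Dnajc3, -0.081 to 0.12 for Canx, -0.30 to 0.10 for Pdia6, -0.59 to 0.11 for Creld2, -0.32 to 0.21 for Manf, -0.68 to 0.17 for Derl3, -0.11 to 0.026 for Atf4 and -0.12 to 0.12 for Xbp1. These are the ranges that hold both signs. Hspa9, Hspe1 and Ddit3 stayed below 0 throughout, with Ddit3 at -0.84 to -0.24. Hyou1, Sdf2l1, Calr, Pdia3, Pdia4 and Fkbp11 stayed above 0, with Calr at 0.17 to 0.37. Counts of called members by tissue set moved by over 1.5 times as follows. Without area 1 they were 3 for corpus luteum, 2 for macrophage, 9 for smooth muscle and 2 for theca and interstitial. Without area 2 they were 10 for granulosa, 5 for oocyte, 4 for surface epithelium and 1 for theca and interstitial. Without area 3 they were 2 for corpus luteum, 5 for macrophage, 0 for oviduct epithelium and 6 for surface epithelium, and without area 4 they were 1 for macrophage and 7 for smooth muscle. The top 20% of spots gave 11 for granulosa and 5 for oviduct epithelium, the top 5% gave 5 for macrophage, and DESeq2 gave 1 for plasma cell. No called difference between sets changed direction. Of 97 calls, 9 were lost with RLE scaling, 9 with DESeq2, 34 without area 3 and 38 without area 4. Of 94 calls that were refitted, 34 were lost without area 1 and 36 without area 2. The cause was not tested. The oviduct set used no section of area 1, so leaving that area out changes nothing there. The oviduct set without area 2, its age term, and the oocyte age term without area 3 were not run, as too few sections were left.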

Other observations

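Nupr1, a stress-induced gene of the response list chosen here after its values were seen, was at 751, 866, 1917 and 5560 CPM in young sections 1 to 4 and at 591, 1035, 711 and 5058 CPM in aged sections 1 to 4. Both sections of area 4 were the highest of their age.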
